A study of Homo sapiens with 8 samples.

Results

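The Notch receptors NOTCH1, NOTCH2 and NOTCH3, the ligands JAG1, JAG2 and DLL1, and the target genes HES1, HEY1, HEY2 and HEYL were examined in spheroids of a cisplatin-resistant ovarian carcinoma line and of its parent. The 10 genes were chosen by name from the table of array signals, with the difference between the lines already known, and each is measured by 1 probeset annotated to that gene alone. They are 10 of the 15931 genes tested. Their values across the lines are therefore given as a description, with no p-value.

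The cells were grown as spheroids, dense balls of cells of about 300 μm, in agarose molds. Total RNA was measured on 8 arrays of the Affymetrix Human Gene ST design, 4 of cisplatin-resistant OVCAR-8R spheroids (the sample labels call the line OVCAR-8C) and 4 of cisplatin-sensitive parental OVCAR-8 spheroids. The parent is an established ovarian adenocarcinoma line, and OVCAR-8R came from it through cisplatin, a DNA-crosslinking platinum drug, given continuously in rising steps up to 5 μM. The resistant line is labelled as stably resistant after the drug was withdrawn, and none of the sources says whether it is a single clone. Both lines were kept in the same serum-containing medium. One resistant line stands for resistance, so the derivation of this line and resistance in general cannot be told apart.

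Notch receptors are membrane proteins that are activated by ligands of the Jagged and Delta-like families on a neighbouring cell. Binding lets an ADAM protease and then γ-secretase cut the receptor, and the freed intracellular domain enters the nucleus. There it joins the DNA-binding protein RBPJ and a Mastermind-like coactivator and turns on target genes, of which the HES and HEY genes, encoding basic helix-loop-helix repressors, are the best known. Without the receptor fragment, RBPJ recruits corepressors instead. In ovarian carcinoma NOTCH3 is known for amplification in part of the serous tumours. The arrays measure RNA only, so cleavage of the receptors was not measured.

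The promoters of HES1, HEY2 and HEYL are shown because the core of the RBPJ binding site can be read in them. Of the 10 members, 8 were searched in the RefSeq promoter table (GRCh38.p14). DLL1 had no entry there, and HEY1 was left out of the search, so its promoter is not reported here. The motif TGGGAA was searched on both strands (TTCCCA on the reverse) in the 250 bases before the annotated start, and overlapping matches were allowed. It was found in 3 of the 3 target genes searched, HEY1 not among them, and in 0 of the 5 receptors and ligands searched. Of all 35116 promoters, 20.8% held it. HES1 and HEYL held 2 matches each and HEY2 held 1, while 2.9% of all promoters held 2 or more. The sequences run 5′ to 3′ on the strand of the gene, from chr3:194135898-194136147 (plus strand) for HES1, chr6:125749382-125749631 (plus strand) for HEY2 and chr1:39639644-39639893 (minus strand) for HEYL, and capitals mark the matches.
HES1: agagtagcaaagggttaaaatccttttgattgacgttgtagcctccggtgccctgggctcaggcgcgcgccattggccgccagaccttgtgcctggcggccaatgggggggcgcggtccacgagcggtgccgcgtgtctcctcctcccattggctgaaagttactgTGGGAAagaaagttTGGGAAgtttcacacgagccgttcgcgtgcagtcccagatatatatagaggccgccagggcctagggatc
HEY2: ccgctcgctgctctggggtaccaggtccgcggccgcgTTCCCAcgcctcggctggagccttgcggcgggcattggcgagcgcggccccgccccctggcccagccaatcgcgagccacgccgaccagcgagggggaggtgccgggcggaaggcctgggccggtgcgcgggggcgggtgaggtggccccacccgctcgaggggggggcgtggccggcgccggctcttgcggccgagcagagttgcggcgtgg
HEYL: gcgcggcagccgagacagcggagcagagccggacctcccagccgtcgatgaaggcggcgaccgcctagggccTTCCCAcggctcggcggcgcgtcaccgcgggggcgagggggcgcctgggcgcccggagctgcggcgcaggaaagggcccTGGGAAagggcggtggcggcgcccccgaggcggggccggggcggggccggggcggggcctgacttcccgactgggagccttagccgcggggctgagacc
In HES1 the matches begin 84 and 70 bases before the start, both on the strand of the gene. In HEY2 the match begins 213 bases before the start on the reverse strand. HEYL has a reverse match at 178 bases and a forward match at 99 bases. A match describes letters in this window and does not show binding, and the window leaves out distant enhancers. Only exact copies of the motif were searched, so RBPJ sites with other letters would be missed, in these promoters as in those without a match.

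**Figure D1:**
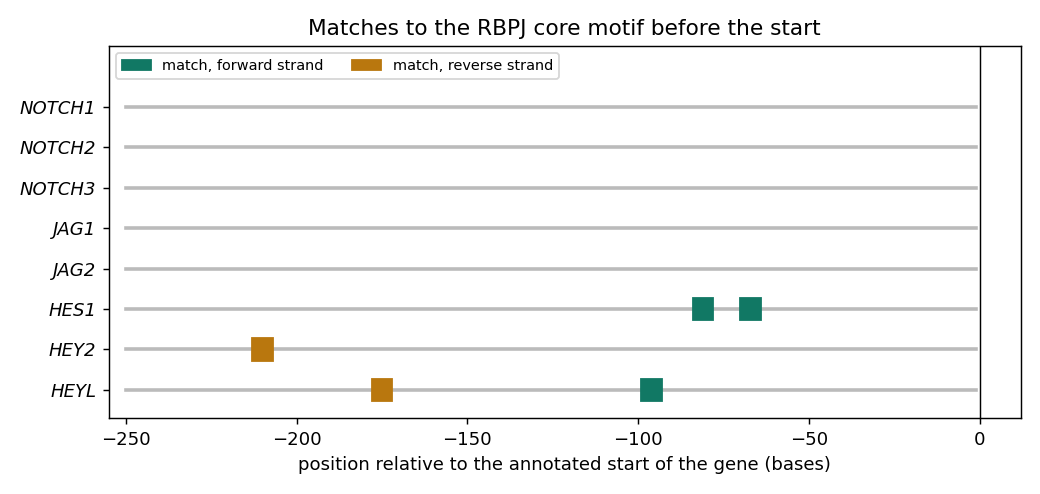
Matches to the RBPJ core motif (green, forward strand; orange, reverse strand) in the 250 bases before the annotated start of the 8 members searched (DLL1 and HEY1 were not), by distance from the start in bases. HES1 has its matches 84 and 70 bases before the start, HEY2 and HEYL have theirs farther away, and the receptors and Jagged genes have none.

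In OVCAR-8R spheroids 2 of the 3 receptors and both Jagged ligands read higher than in OVCAR-8 spheroids, 3 of the 4 target genes and DLL1 read lower, and NOTCH3 and HEYL overlapped. NOTCH2 and JAG1 passed the call rule as higher, and HEY1 and HEY2 as lower. The rule asks for a Benjamini-Hochberg adjusted p under 0.05 (limma, all probesets kept) together with at least a 2-fold difference. It called 8.37% of all genes higher and 8.37% lower, so the 2 and 2 members stand beside 16.7% of genes in either direction, and since the members were chosen with this contrast known nothing is read from these counts. The other 6 members were not called. At any size of difference 4 members were higher (NOTCH1, NOTCH2, JAG1 and JAG2) and 4 lower (DLL1, HES1, HEY1 and HEY2), beside 27.6% and 30.0% of all genes and 57.6% in either direction. For these 8 the arrays of the lines did not overlap, which also holds for 27.3% of all genes with OVCAR-8R higher, 29.5% with OVCAR-8R lower and 56.8% in either direction. The median absolute log2 difference was 0.87 over the members and 0.34 over all genes. All signals and differences below are on the log2 scale, differences are OVCAR-8R minus OVCAR-8, and each is followed by its standard error (SE) from limma with 4 arrays per line. In bulk RNA a lower signal from fewer expressing cells and from less RNA per cell cannot be told apart.

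**Figure D2:**
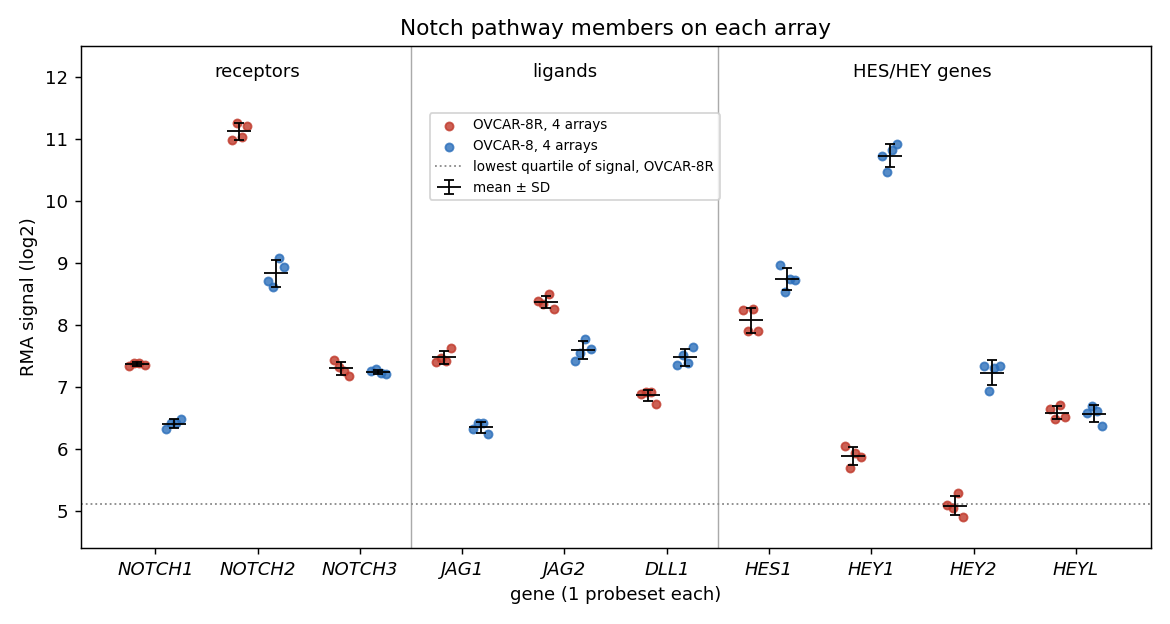
Log2 RMA signal of each member by array, 4 of OVCAR-8R in red and 4 of OVCAR-8 in blue, with mean and SD in black and the limit of the lowest quartile of signal in OVCAR-8R dotted. HEY1 ranges over 5.70 to 6.04 in OVCAR-8R and 10.47 to 10.91 in OVCAR-8, whereas NOTCH3 and HEYL overlap.

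Among the receptors, NOTCH2 had the largest difference. Its signal was 10.99, 11.26, 11.03 and 11.21 on OVCAR-8R arrays 1 to 4, against 8.70, 8.61, 9.08 and 8.93 on the OVCAR-8 arrays. The lines were clearly apart, with 1.91 between the lowest OVCAR-8R and the highest OVCAR-8 array. The difference was 2.29 (SE 0.12), a 4.89-fold higher signal, and it ranked 317th among the rises of the 15931 genes. NOTCH2 has near-identical partial copies in the human genome, the NOTCH2NL genes. A further probeset annotated to NOTCH2 together with such copies was not used, and the probeset used may share signal with them.

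NOTCH1 is the receptor of the family whose activation drives T cell leukaemia. It had 7.34, 7.39, 7.39 and 7.36 on the OVCAR-8R arrays, against 6.32, 6.42, 6.42 and 6.49 on the OVCAR-8 arrays. The groups did not overlap, and its pooled SD within a line (0.05) was larger than that of only 3.03% of genes. The difference of 0.96 (SE 0.07), or 1.94-fold, lies just under the 2-fold limit, and JAG1 lies just above it.

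NOTCH3, the receptor known from serous ovarian tumours, did not separate the lines. Its signal was 7.43, 7.32, 7.27 and 7.18 in OVCAR-8R, against 7.26, 7.29, 7.23 and 7.20 in OVCAR-8. The OVCAR-8R arrays spanned the whole range of the OVCAR-8 arrays. The difference was 0.06 (SE 0.07), with a 95% confidence interval from -0.11 to 0.22.

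JAG1, a Jagged ligand of all these receptors, had 7.40, 7.47, 7.42 and 7.63 on the OVCAR-8R arrays and 6.33, 6.41, 6.42 and 6.24 on the OVCAR-8 arrays. The lines were 0.98 apart at their nearest arrays. The difference was 1.13 (SE 0.08), or 2.19-fold. JAG1 was no longer called with treat, a limma test whose null is a change of up to 2-fold.

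JAG2, the other Jagged ligand, was also higher in OVCAR-8R, by less than 2-fold. It had 8.38, 8.34, 8.50 and 8.26 in OVCAR-8R spheroids, against 7.42, 7.55, 7.77 and 7.61 in OVCAR-8 spheroids. The lowest OVCAR-8R array was 0.48 above the highest OVCAR-8 array. The difference was 0.78 (SE 0.09), or 1.72-fold.

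DLL1, a Delta-like ligand, went the other way from the Jagged genes. Its signal was 6.89, 6.92, 6.92 and 6.73 in OVCAR-8R and 7.36, 7.52, 7.39 and 7.65 in OVCAR-8, so the lines did not overlap. The difference was -0.62 (SE 0.09), a 1.53-fold lower signal. Of the 3 ligands, then, JAG1 and JAG2 read higher and DLL1 lower.

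**Figure D3:**
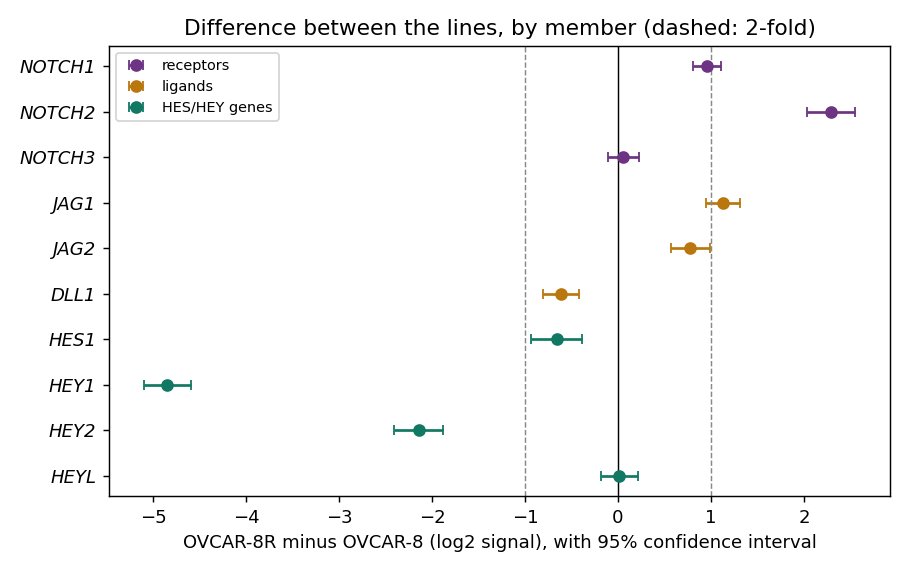
Difference of each member, OVCAR-8R minus OVCAR-8 in log2 signal, with its 95% confidence interval from limma (n = 4 arrays per line). Points are coloured by role and dashed lines mark 2-fold. HEY1 lies at -4.85 and NOTCH2 at 2.29, and the intervals of NOTCH1 and JAG1 reach across the 2-fold line.

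HEY1, a repressor induced by Notch in many tissues, had the largest difference of the members. It read 6.04, 5.70, 5.93 and 5.87 on the OVCAR-8R arrays, against 10.72, 10.47, 10.82 and 10.91 on the OVCAR-8 arrays. The lines were 4.43 apart at their nearest arrays, while the SD within a line was 0.14 in OVCAR-8R and 0.19 in OVCAR-8 (n = 4 each). The difference was -4.85 (SE 0.11), a 28.8-fold lower signal in OVCAR-8R. Only 10 of the 15931 genes had a larger fall, which places HEY1 11th. The mean of 5.89 in OVCAR-8R lay above the lowest quartile of signal, which ended at 5.11. It was still under the median signal of each OVCAR-8R array (6.68 to 6.73). CDH5, the highest of 5 endothelial markers, read 5.78 in OVCAR-8R, so the size of the HEY1 difference is uncertain and may be larger.

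HEY2, known for its part in heart and arterial development, differed in the same direction. It had 5.09, 5.05, 5.29 and 4.91 in OVCAR-8R spheroids and 7.35, 6.93, 7.30 and 7.34 in OVCAR-8 spheroids. No array of one line reached the other. The difference was -2.14 (SE 0.12), 4.42-fold lower in OVCAR-8R and 142nd among the falls. The OVCAR-8R mean of 5.08 lay in the lowest quartile, near background, so the size is uncertain and may be larger. When probesets in the lowest quartile of either line were left out, HEY2 was not tested and the count of lower members was 1.

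HES1, a general Notch target that also represses its own gene, was moderately lower. Its signal was 8.25, 7.90, 8.26 and 7.91 on OVCAR-8R arrays 1 to 4, against 8.97, 8.53, 8.74 and 8.73 on the OVCAR-8 arrays. In OVCAR-8R, arrays 1 and 3 lay above arrays 2 and 4. The same arrays also deviated together over all probesets kept (r = 0.43 for arrays 1 and 3 and r = 0.48 for arrays 2 and 4, across 25628 probesets, which are not independent replicates), and the part of this in the HES1 values was not tested. The lines did not overlap but came within 0.27 of each other. The difference was -0.66 (SE 0.12), or 1.58-fold, and the pooled SD of 0.19 exceeded that of 82.2% of genes.

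HEYL, the third HEY gene, did not separate the lines. It had 6.64, 6.48, 6.70 and 6.51 in OVCAR-8R and 6.59, 6.69, 6.62 and 6.38 in OVCAR-8, and the arrays overlapped. The difference was 0.02 (SE 0.09), with a 95% confidence interval from -0.19 to 0.22. The 4 target genes thus ranged from -4.85 to 0.02 in difference. The 3 whose promoters are printed above, all with the RBPJ core motif, had differences of -0.66 (HES1), -2.14 (HEY2) and 0.02 (HEYL).

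**Figure D4:**
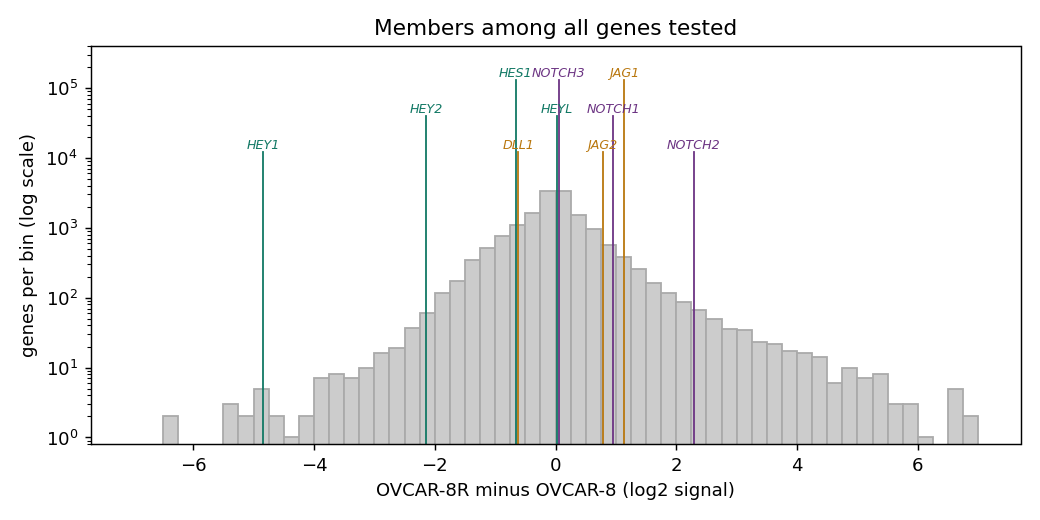
Difference between the lines (OVCAR-8R minus OVCAR-8, log2 signal) for all 15931 genes as a histogram with a log count axis, with the members as vertical lines coloured by role (receptors purple, ligands orange, HES and HEY genes green). HEY1 at -4.85 lies in the lower tail, and NOTCH3 at 0.06 and HEYL at 0.02 lie at the peak.

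The genes whose pattern over the 8 arrays lay closest to that of HEY1, by Euclidean distance of mean-centred log2 signals, were HOXD10, GOLIM4 and GPR50. HOXD10, a homeobox gene, lay at a distance of 0.30 (r = 0.999, n = 8 arrays), with 5.96 ± 0.12 in OVCAR-8R and 10.81 ± 0.15 in OVCAR-8 (SD, n = 4 each). GOLIM4, a Golgi membrane protein gene whose OVCAR-8R mean lay in the lowest quartile, lay at 0.47, and GPR50, an orphan receptor gene related to the melatonin receptors, at 0.48. The arrays come from 2 lines, so r and the distance largely restate the difference between the lines. These differences were close to that of HEY1, at -4.85 for HOXD10, -4.85 for GOLIM4 and -4.76 for GPR50.

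A further 99 Notch pathway genes were listed from general knowledge, with earlier results of these data known, so their adjusted p-values are a description. Of these, 91 were tested, 12 were higher, 10 were lower and 69 were not called, beside 8.37% of all genes higher and 8.37% lower. At any size of difference 40 were higher and 25 lower, beside 27.6% and 30.0% of all genes. The counts of the single lists below stand beside the same shares, with no test of a list. CNTN6 was left out for low signal in both lines, and 7 genes of the list were not analysed here. The median difference was 0.17 over the 91 genes and -0.01 over all genes.

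The remaining receptor and classical ligands were not called. NOTCH4 had a difference of 0.22 (SE 0.10, adjusted p = 0.0946 from limma), DLL4 one of -0.10 (SE 0.10, adjusted p = 0.454) and DLL3, a ligand that acts inside the cell as an inhibitor, one of -0.35 (SE 0.08, adjusted p = 0.00440), under 2-fold. Of the 11 genes in this list, which also holds non-classical ligands and Notch-binding proteins, 3 were higher, 1 was lower and 7 were not called. MFAP5, a microfibril protein reported to bind Notch proteins, had 10.24 to 10.38 on the OVCAR-8R arrays and 4.68 to 5.41 on the OVCAR-8 arrays, a rise of 5.26 (SE 0.14, adjusted p = 1.98e-09). The OVCAR-8 mean of MFAP5 lay in the lowest quartile, so that size is uncertain. DNER, a neuronal Notch ligand, rose by 2.49 (SE 0.09, adjusted p = 1.61e-08), and CCN3, a secreted matricellular protein, by 2.09 (SE 0.12, adjusted p = 3.82e-07). CNTN1, a contactin that can act as a Notch ligand in the nervous system, fell by 1.51 (SE 0.10, adjusted p = 7.69e-07).

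Of 8 receptor cleavage genes 7 were not called, and 16.7% of all genes were called in either direction. APH1B, a γ-secretase subunit, rose by 1.36 (SE 0.13, adjusted p = 1.12e-05), a call that ended with treat. At any size 3 cleavage genes were higher (APH1B, ADAM17 and ADAM10) and 3 lower. The lower ones, APH1A (-0.77), PSENEN (-0.41) and PSEN2 (-0.40), are also γ-secretase subunits. The subunit NCSTN had a difference of 0.01. None of the 11 glycosylation genes was called, which include the fringe enzymes that tune ligand choice, although by limma without the fold limit 5 were higher and 4 lower. POGLUT3, an O-glucosyltransferase gene picked after its values were seen, lay at the edge with 0.99 (SE 0.10), and was called with cyclic loess (1.08) and without OVCAR-8R array 1 (1.03), OVCAR-8 array 3 (1.06) or OVCAR-8 array 4 (1.02). None of the 5 genes for ligand ubiquitination and endocytosis was called either, with 3 higher and 1 lower at any size.

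Among 14 genes for receptor turnover and inhibition, 3 were higher and 1 was lower. DTX3L, a Deltex family ubiquitin ligase, rose by 2.45 (SE 0.18, adjusted p = 2.34e-06), the ubiquitin ligase gene NEDD4 by 2.12 (SE 0.09, adjusted p = 7.56e-08) and the endocytic kinase gene BMP2K by 1.14 (SE 0.11). FBXW7, which marks the cleaved Notch domain for degradation, fell by 1.24 (SE 0.11, adjusted p = 7.19e-06). With treat the calls of BMP2K and FBXW7 ended. NRARP, a feedback inhibitor that Notch itself induces, had 7.84 ± 0.10 in OVCAR-8R and 7.99 ± 0.12 in OVCAR-8 (SD, n = 4 each), overlapping arrays and a difference of -0.16 (adjusted p = 0.155 from limma). It was picked after its values were seen.

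RBPJ itself, the DNA-binding partner of all Notch receptors, had a difference of -0.08 (SE 0.07, adjusted p = 0.380 from limma). In its complex, MAML2, a Mastermind-like coactivator, had 9.68, 10.06, 9.60 and 10.25 in OVCAR-8R spheroids against 6.39, 6.50, 6.51 and 6.71 in OVCAR-8 spheroids. This rise of 3.37 (SE 0.15, adjusted p = 6.13e-08) was the only one called among 9 genes of the complex. At any size 2 genes of the complex were higher and 4 lower. The lower ones included MAML3 (-0.64), the other Mastermind-like gene tested, and also SNW1 (-0.60) and KAT2B (-0.46). KAT2A, an acetyltransferase, fell by 1.05 (SE 0.09, adjusted p = 6.13e-06), a call that ended just under 2-fold with cyclic loess, and also with treat.

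Of 14 RBPJ corepressor genes, 6 were lower in OVCAR-8R and 0 were higher by limma (at any size of difference, 8 lower and 5 higher), beside 8.37% of all genes lower by the rule and 30.0% lower and 27.6% higher at any size. L3MBTL3, a chromatin reader that binds RBPJ, had 6.01, 6.18, 5.93 and 5.89 in OVCAR-8R and 8.88, 8.86, 8.74 and 9.19 in OVCAR-8, so its signal fell by 2.91 (SE 0.11, adjusted p = 2.34e-08). The Groucho family genes TLE4 and TLE3 fell by 1.37 (SE 0.14) and 1.36 (SE 0.14), and TBL1X, a subunit of the NCOR complex, by 1.20 (SE 0.08). Their relatives went the other way by less than 2-fold, with TLE1 at 0.53, TLE2 at 0.37 and TBL1XR1 at 0.39. The remaining genes higher at any size were CTBP2 (0.60) and CTBP1 (0.24). SPEN, a direct RBPJ corepressor, fell by 1.08 (SE 0.11), and the histone deacetylase gene HDAC1 by 1.06 (SE 0.08). SPEN and HDAC1 were named after their values were seen, to complete the count of 6. The median of this list was -0.60. The calls of SPEN and HDAC1 ended with cyclic loess, which left 4, and with treat only that of L3MBTL3 stayed.

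Of 9 other HES and related repressor genes, 7 were not called. BHLHE40 and BHLHE41, which encode the clock repressors DEC1 and DEC2, moved in opposite directions, with a rise of 1.45 (SE 0.09, adjusted p = 4.96e-07) and a fall of 1.17 (SE 0.07, adjusted p = 6.71e-07), of which the BHLHE41 call ended with treat. HES4, picked as an example after its values were seen, had a difference of -0.02 (adjusted p = 0.858 from limma).

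Further genes reported as Notch targets in other tissues were higher for 3 of 10 and lower for 0 (limma; 6 and 1 at any size). IL7R, a Notch target of developing T cells, had 10.20 to 10.50 in OVCAR-8R and 4.84 to 5.24 in OVCAR-8, a rise of 5.38 (SE 0.11, adjusted p = 4.03e-10), with OVCAR-8 in the lowest quartile. The cyclin gene CCND1 rose by 1.81 (SE 0.09, adjusted p = 1.44e-07) and the arterial marker gene EFNB2 by 1.76 (SE 0.11, adjusted p = 5.40e-07). MYC, chosen after its values were seen, had a difference of 0.61 (SE 0.10), under 2-fold.

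**Figure D5:**
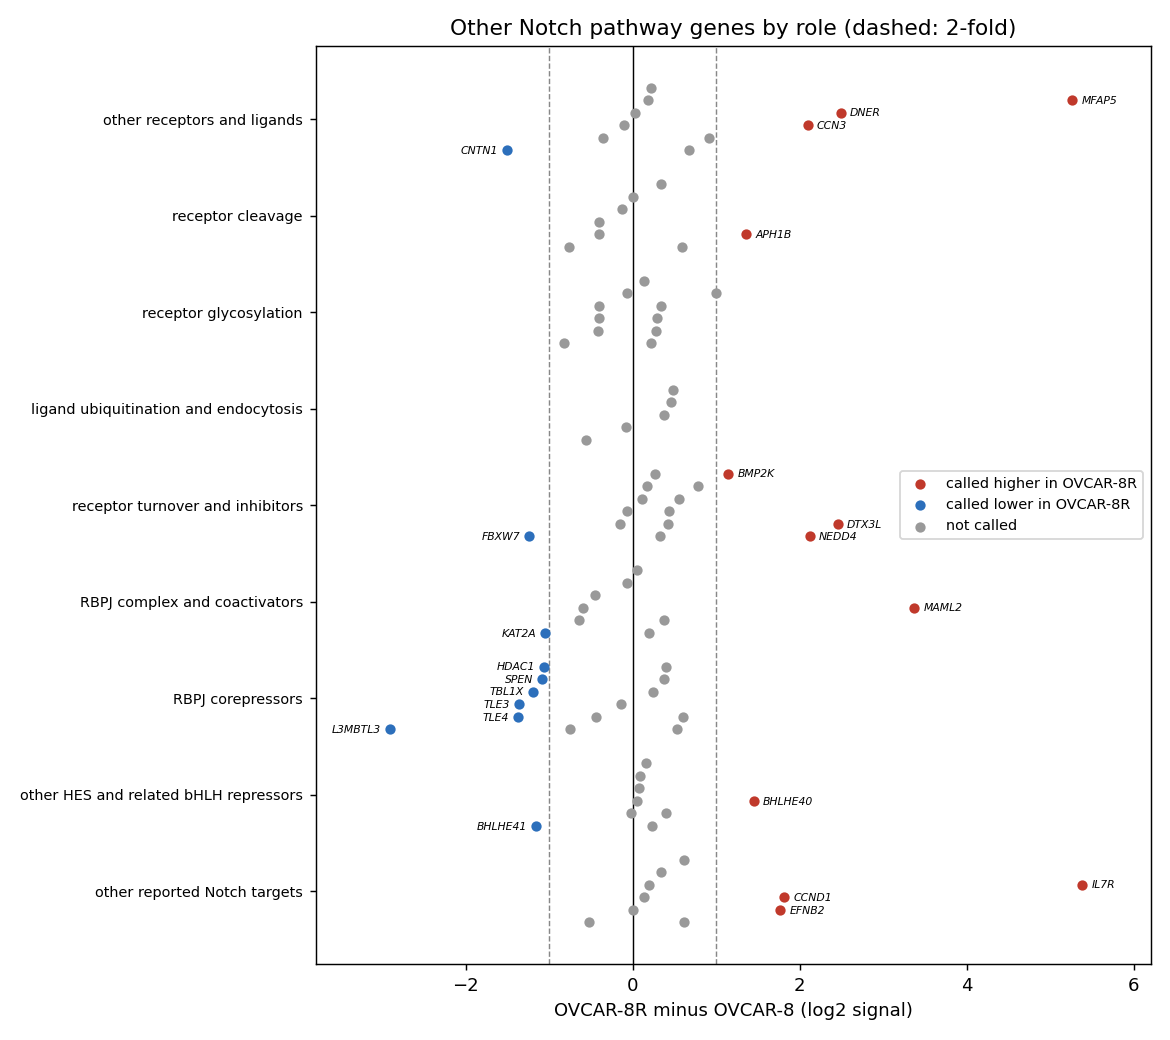
Difference of each of the 91 other Notch pathway genes, OVCAR-8R minus OVCAR-8 in log2 signal, by role (red, called higher; blue, called lower; grey, not called; dashed lines, 2-fold; the vertical offset within a role only separates points). Of the 14 RBPJ corepressors, 6 lie left of the lower line and 0 right of the upper one, while 8.37% of all genes were called lower and 8.37% higher.

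Lineage markers moved between the lines as well. The counts of each list stand beside 8.37% of all genes called higher and 8.37% lower, with no test of a list. Of 11 ovarian carcinoma markers 6 were higher in OVCAR-8R (PAX8, EPCAM, KRT7, KRT8, KRT18 and CD24, by 1.90 to 5.22) and 1 was lower (MECOM, with a difference of -2.45, or -0.41 and not called in another probeset). CD24 in OVCAR-8 and MECOM in OVCAR-8R lay in the lowest quartile, so the sizes of both differences are uncertain. WT1, MUC16, CDH1 and SOX17 were not called. At any size 6 ovarian carcinoma markers were higher and 3 lower (MECOM, WT1 at -0.86 and CDH1 at -0.23), beside 27.6% and 30.0% of all genes. The mean signal over all 11 ovarian carcinoma markers was 8.34 to 8.42 on the OVCAR-8R arrays and 6.83 to 6.89 on the OVCAR-8 arrays. The 3 mesothelial markers tested, MSLN, CALB2 and LRRN4, were higher, at a list mean of 8.47 to 8.67 in OVCAR-8R and 6.12 to 6.35 in OVCAR-8. None of the 5 endothelial markers was called by limma, with 0 past an adjusted p of 0.05 at any size, and their list mean was 5.37 to 5.51 in OVCAR-8R and 5.22 to 5.34 in OVCAR-8. Of the fibroblast markers, COL1A1 was higher and LUM lower (a call that ended with treat, with OVCAR-8R in the lowest quartile), while DCN and FAP were in the lowest quartile in both lines, and the list mean was 5.77 to 5.86 in OVCAR-8R and 5.48 to 5.66 in OVCAR-8. Of the immune markers, CD68, a lysosomal protein of many cells, was higher, and PTPRC and CD3E, which define leukocytes and T cells, were in the lowest quartile in both lines, at a list mean of 6.42 to 6.55 in OVCAR-8R and 5.76 to 5.87 in OVCAR-8. The part of these shifts in the Notch gene values was not tested.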

How the data were processed

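The deposited values are linear intensity values, 1 for each probeset on each array. The authors computed them by RMA in Affymetrix Expression Console (background correction, quantile normalization, summary over probes), so an overall shift between the lines would be removed. The log2 of each intensity was taken. Of 33297 probesets, 19460 are annotated to 1 gene, 1754 to several and 12083 are unnamed here. Of the first, 19429 were found by gene identifier in RefSeq (GRCh38.p14). As in the methods, probesets in the lowest 25% of mean signal in both lines (log2 5.11 in OVCAR-8R and 5.16 in OVCAR-8) were left out. This kept 25628, which measure 15931 genes, each by its probeset with the highest mean.

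Lines were compared in limma 3.58.1 under R 4.3.3 (lmFit, eBayes), without a replicate block. The procedure was tested on simulated data with independent noise and known shifts in probesets of above-median signal. That test does not cover low signals or arrays that deviate together. The members, the gene lists and the alternatives were chosen with earlier results of these data known. Named are all members, NOTCH4, DLL3, DLL4, RBPJ, up to 4 called genes per list and direction, called markers and the 3 genes nearest HEY1. Markers that were not called or low are named to account for their lists, as is CNTN6. Further genes of the cleavage, complex and corepressor lists that were not called are named after their values were seen, to account for the counts. Other names are marked as chosen later. Precision is limited by the 4 arrays of each line, which have no read depth. The titles call the arrays biological replicates, without the step of separation, so p-values rest on array-to-array spread, which may be partly technical. Alternatives were other filters, thresholds, tests, scalings and probeset summaries, array weights, a replicate block, and omission of single arrays.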

Additional observations from a re-analysis of the deposited data

Results flagged for a closer look

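Of 114 groups of 4 arrays examined, 5 held 1 array far from the other 3 by Dixon's test, and chance gives about 1 in 20 groups. Among the members this was HEY2 on OVCAR-8 array 2, at 6.93 against 7.30 to 7.35 on the other OVCAR-8 arrays, and without that array the HEY2 difference was -2.25. HOXD10, the gene nearest to HEY1, was also low on OVCAR-8 array 2, at 10.58 against 10.87 to 10.90. Among other genes, DNER was high on OVCAR-8 array 4 (6.09 against 5.77 to 5.79), TBL1X was low on OVCAR-8R array 1 (7.33 against 7.53 to 7.56) and MECOM was low on OVCAR-8 array 1 (6.81 against 7.20 to 7.27).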

How the results depend on the processing

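Under 19 alternatives each member's difference moved by less than its pooled SD within a line, and NOTCH2 stayed between 2.22 and 2.40, HEY1 between -4.93 and -4.78 and HEY2 between -2.25 and -2.09 (18 alternatives). HEYL, not called, lay between -0.05 and 0.06. Only the other scalings, array weights and omission of single arrays could move a member's difference. The other filters, thresholds, tests, probeset summary and replicate block leave it unchanged by construction. Without the fold limit, genes called higher numbered 4396 and genes called lower 4776, with 4 and 4 members and 40 and 25 other pathway genes. With treat, 832 genes were called higher and 643 lower, with 1 member higher, 10 other pathway genes higher and 2 lower and 1 corepressor lower, since treat asks for more than 2-fold. With the lowest quartile in either line left out, 1 member was lower, because HEY2 was no longer tested. The methods' t-test gave 1334 higher and 1333 lower genes after Benjamini-Hochberg adjustment, and 1334 and 1328 with the p-value limit of the series description added.

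Leaving out each array in turn gave 1306 to 1359 genes higher and 1269 to 1401 lower, 2 to 2 members higher and 2 to 2 lower, 12 to 13 other pathway genes higher and 10 to 10 lower, and 6 to 6 corepressors lower. Cyclic loess left 7 other pathway genes lower. Same-numbered arrays of the lines did not deviate together throughout (r from -0.32 to 0.44), so the numbers were not taken as pairs. With the replicate block 1334 genes were higher and 1334 lower, 12 and 10 of the other pathway genes, with 2 and 2 members and 6 corepressors called as without it. Signals near background limit the sizes for HEY2, MFAP5, IL7R, CD24, MECOM, LUM and GOLIM4. The size for HEY1, whose OVCAR-8R signal was low though above the lowest quartile, is uncertain as well.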
